A study of Mus musculus with 9 samples.

Results

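The genes encoding the neuronal nicotinic acetylcholine receptor subunits were followed in the substantia nigra of Swiss Webster mice given methylphenidate (MPH), a stimulant that blocks the dopamine and norepinephrine transporters. They were chosen by name: every probe set, a group of short probes on the array, whose platform symbol was Chrna2, Chrna3, Chrna4, Chrna5, Chrna6, Chrna7, Chrnb2, Chrnb3 or Chrnb4 was taken. This gave 16 probe sets for 9 genes, of 45037 probe sets and 17097 genes on the array. Juvenile mice had received intraperitoneal injections of saline or of MPH at 1 or 10 mg/kg once daily on a school-week schedule for several months, and the substantia nigra was dissected after a washout without drug. Each group had 3 Affymetrix HT MG-430 PM arrays of this bulk tissue, and the labels give no allele or transgene. The labels name a mouse as the source of each array but number no animals, so p-values measure the spread between these arrays, which may be technical in part. The groups are called by the deposited array labels. In the study's own gene lists the names of the 2 doses stand the other way round relative to these labels, and the array values cannot settle which is right. The values are log2 expression values from Robust Multichip Average (RMA), so a difference of 1 is a doubling.

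Nicotinic receptors are cation channels opened by acetylcholine and by nicotine, and each is built of a ring of subunits whose combination sets its affinity, calcium permeability and place in the cell. In the midbrain, receptors holding the alpha6 and beta3 subunits are known from dopamine neurons and their striatal terminals, where they tune dopamine release, while alpha4 and beta2 form the common high-affinity receptor of the brain. The alpha3, alpha5 and beta4 subunits are best known from autonomic ganglia and the pathway from the medial habenula to the interpeduncular nucleus, alpha7 forms a receptor from copies of itself, and alpha2 is restricted to few cell groups, the interpeduncular nucleus among them.

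The tissue label held in every array. The genes of tyrosine hydroxylase (Th), aromatic amino acid decarboxylase (Ddc) and the dopamine transporter (Slc6a3) had log2 values between 10.31 and 12.34 in all 9 arrays. Of 19 genes listed for dopamine neurons, 18 were measured and 17 of these lay above the controls described below. Array medians ran from 4.49 to 4.53. Saline replicates 2 and 3 and replicate 1 of the 10 mg/kg arrays stood apart in genes of neighbouring regions. The mean log2 value of the raphe genes Tph2 and Slc6a4, which make and take up serotonin, was 3.18 to 4.76 in the 6 MPH arrays, against 4.16, 6.95 and 6.26 in saline replicates 1, 2 and 3. Saline replicate 2 also had the lowest mean of 5 thalamic genes, at 7.46. Replicate 1 of the 10 mg/kg arrays had a mean of 6.92 over 7 genes of cortex and hippocampus, against 5.87 to 6.24 in the other arrays. Among the array's RNA quality controls, the value at the 3' end of Actb minus that at its 5' end, which grows as RNA degrades, was 1.03 to 1.19 in the 6 MPH arrays and 0.882 to 0.934 in the 3 saline arrays, without overlap. That of Gapdh was 0.224 to 0.409 in the MPH arrays and 0.231 to 0.387 in the saline arrays.

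The members differed in how far they stood above the array's background. Of the 23 non-matching controls, probe sets made to match nothing in the genome, 22 averaged 2.60 to 3.59 over the arrays and the last averaged 5.07. Above 3.59 lay 11 of the 16 member probe sets, including at least 1 for Chrna2, Chrna3, Chrna4, Chrna5, Chrna6, Chrnb2 and Chrnb3. The remaining 5 probe sets, both of Chrnb4, the single one of Chrna7, and 1 each of Chrna3 and Chrnb2, did not. Chrna2 passed with a mean of 3.60 that fewer of its arrays exceeded than not. Where a gene had several probe sets, the brightest stands for it in the counts, and all are described. Brightness depends on the probes as well as on the transcript, so no level is set against that of another gene.

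**Figure D1:**
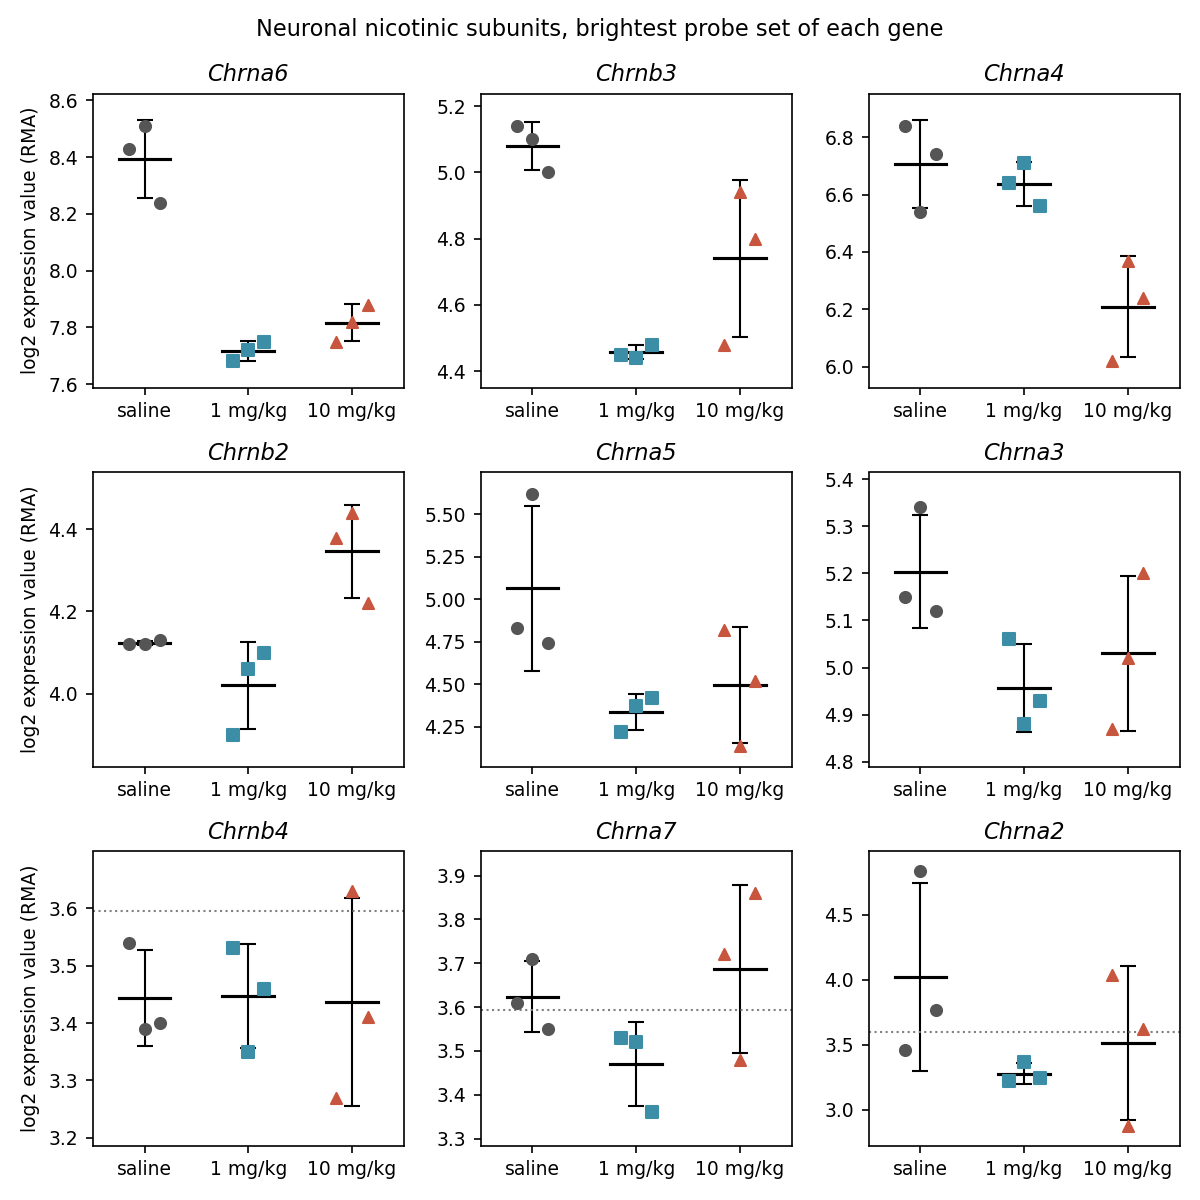
Log2 expression value (RMA) of the brightest probe set of each of the 9 subunit genes in the 9 arrays, by group (saline and the 2 MPH doses in mg/kg, 3 arrays each). Points are arrays, horizontal lines are means, error bars are SD, the y axes differ between panels, and the dotted line at 3.59 marks the highest mean of the 22 non-matching controls. All 6 MPH arrays lie below all 3 saline arrays for Chrna6 and Chrnb3, and the one high saline array for Chrna5 and Chrna2 is replicate 2.

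Subunits of the dopamine neuron receptors, Chrna6 and Chrnb3, had lower values in both MPH groups than in saline. Relative to saline, Chrna6 was 37.3% lower in the 1 mg/kg arrays and 33.0% lower in the 10 mg/kg arrays, and Chrnb3 was 35.0% and 21.1% lower. In this bulk tissue, fewer cells of a type and less RNA in each cannot be told apart. Over all 9 genes, 8 had a lower mean in the 1 mg/kg arrays and 7 in the 10 mg/kg arrays than in saline, where 56.2% and 56.0% of all 17097 genes did. The 9 include Chrna2, at the edge of the controls, and Chrna7 and Chrnb4, which were not above them. None of the 9 passed an adjusted p of 0.05 in limma, in either comparison, when the replicate number was a block, and neither did any other probe set (0% of 45037). At a nominal p, before adjustment, of up to 0.05, 3 of the 9 were lower at 1 mg/kg (5.77% of all probe sets), and at 10 mg/kg 3 were lower (5.51%) and 1 was higher (4.08%). Counted over genes by their brightest probe sets, as the members are, the lower shares were 7.40% and 6.95% of 17097, and the higher share at 10 mg/kg was 3.28%. With no block, limma passed Chrna6 in both comparisons, where 0.12% of all probe sets passed at 1 mg/kg and 0.255% at 10 mg/kg. The p-values of that fit are too small if the deposited values already hold a correction for the replicates.

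Chrna6 encodes alpha6, the ligand-binding subunit that marks receptors of dopamine neurons. Its brighter probe set, 1450427_PM_at, had log2 values of 8.43, 8.51 and 8.24 in the saline arrays, 7.68, 7.72 and 7.75 in the 1 mg/kg arrays, and 7.75, 7.82 and 7.88 in the 10 mg/kg arrays. Every MPH array lay below every saline array, while the MPH groups overlapped each other. The log2 fold change was -0.67 (SE 0.09, 95% interval -0.88 to -0.47) in the 1 mg/kg arrays and -0.58 (SE 0.09, -0.78 to -0.37) in the 10 mg/kg arrays. The adjusted p from limma over all probe sets was 0.316 and 0.329 with the block, and 0.0251 and 0.0415 without it. Chrna6 is among the genes that the study listed from these arrays, so the call without the block is no independent evidence of its direction. The Actb measure of RNA quality separated the same arrays, and its part in the Chrna6 and Chrnb3 values was not tested.

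The second Chrna6 probe set, 1450426_PM_at, was dimmer and gave the same order. Both probe sets have the same source sequence and were read on the same arrays, so they are not independent measurements. Its log2 values were 5.86, 6.02 and 5.52 in the saline arrays, 5.03, 4.95 and 5.16 in the 1 mg/kg arrays, and 5.11, 5.34 and 5.22 in the 10 mg/kg arrays. Again no MPH array reached the lowest saline array, replicate 3. The log2 fold changes of -0.75 (SE 0.13) and -0.58 (SE 0.13) had adjusted p-values from limma of 0.378 and 0.401, and of 0.0586 and 0.0843 without the block. Between the doses, 10 mg/kg minus 1 mg/kg, the difference was 0.10 on the log2 scale for the brighter probe set (95% interval -0.11 to 0.30) and 0.17 for the dimmer (-0.13 to 0.48). Leaving out 1 array at a time kept the brighter probe set between -0.77 and -0.62 for 1 mg/kg and between -0.68 and -0.52 for 10 mg/kg.

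Chrnb3 encodes beta3, an accessory subunit that assembles with alpha6, and its gene lies next to Chrna6 on chromosome 8. Its single probe set had log2 values of 5.14, 5.10 and 5.00 in the saline arrays, 4.45, 4.44 and 4.48 in the 1 mg/kg arrays, and 4.48, 4.94 and 4.80 in the 10 mg/kg arrays. The 1 mg/kg arrays lay close together and far below saline, whereas replicates 2 and 3 of the 10 mg/kg arrays came near the saline values without reaching them. The log2 fold change was -0.62 (SE 0.11, 95% interval -0.88 to -0.36) for 1 mg/kg and -0.34 (SE 0.11, -0.60 to -0.08) for 10 mg/kg, with adjusted p-values from limma of 0.378 and 0.449. Without the block these were 0.0621 and 0.157. The 10 mg/kg array with high cortical genes, replicate 1, had the lowest Chrnb3 of its group, and without it the log2 fold change for 10 mg/kg was -0.20. The difference between the doses was 0.28 (95% interval 0.02 to 0.54), with an adjusted p from limma of 0.774.

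**Figure D2:**
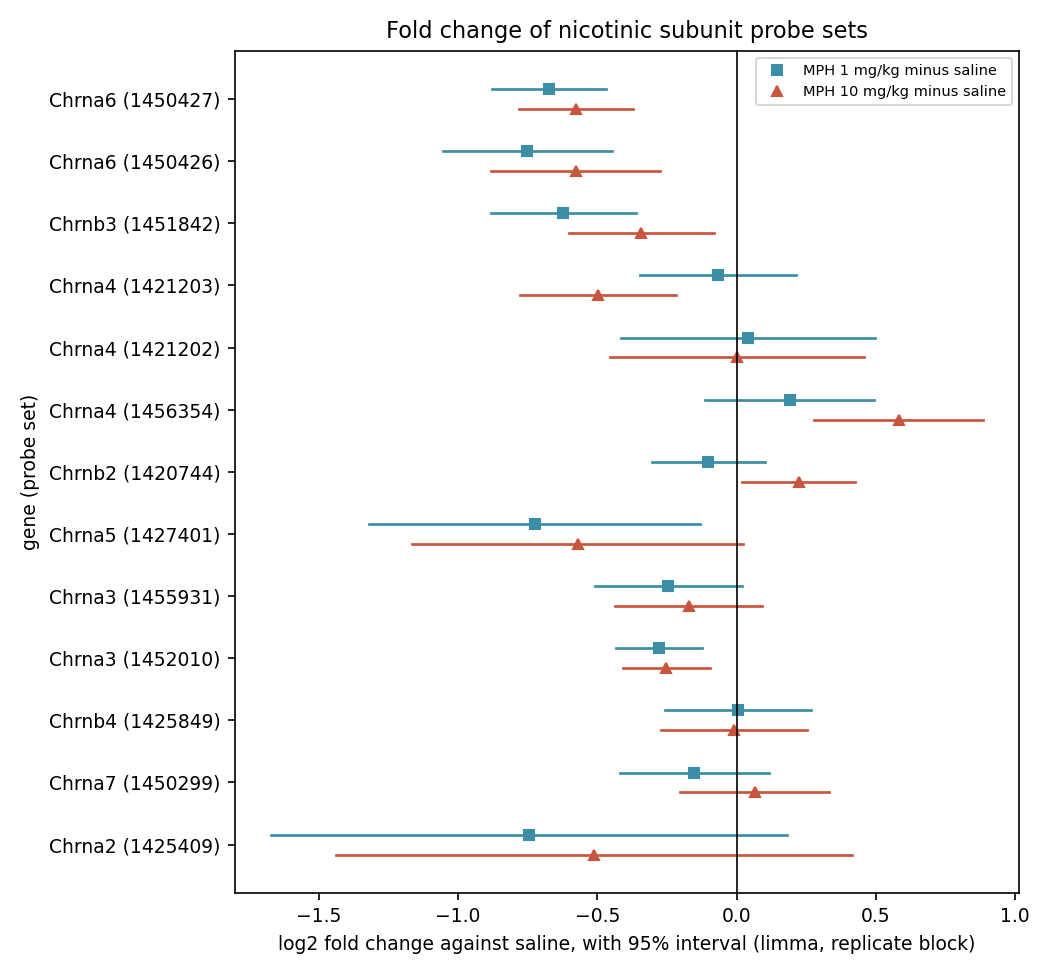
Log2 fold change against saline, with its 95% interval from limma (replicate block), for the 13 member probe sets that are the brightest of their gene or lie above the non-matching controls. Squares are 1 mg/kg MPH minus saline and triangles are 10 mg/kg MPH minus saline. Both intervals lie below 0 for both Chrna6 probe sets, Chrnb3 and the dimmer shown probe set of Chrna3 (1452010), and the 3 Chrna4 probe sets point in different directions.

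The gene nearest to Chrna6 across the arrays was Th. Of 10527 genes above the median brightness, it was the one whose 9 values, each gene set to its own mean, differed least from those of Chrna6, with a root mean square difference of 0.0687 against a median of 0.313 over all these genes. The next were Sncg, which encodes gamma-synuclein, at 0.0856, Nol3, an inhibitor of cell death, at 0.0926, Lingo2, a neuronal membrane protein, at 0.0997, and C130021I20Rik at 0.107. The points share arrays and normalization, and Th and Sncg are in the list for dopamine neurons. For Chrnb3 the nearest were Il13ra1, a receptor chain for interleukin-13, at 0.101, Ctnna2, a catenin of neuronal adhesion, at 0.118, Cela1, an elastase, at 0.131, Ntsr1, a neurotensin receptor, at 0.133, and Vkorc1l1 at 0.133, with a median of 0.288. Th ranked 7 and Chrna6 ranked 12 for Chrnb3.

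Genes of dopamine neurons as a group had lower values in the same arrays. The mean log2 value of the 18 measured genes was 8.13 to 8.33 in the saline arrays, 7.61 to 7.72 in the 1 mg/kg arrays and 7.75 to 7.78 in the 10 mg/kg arrays. Of the 18, 17 had a lower mean in the 1 mg/kg arrays than in saline (median log2 fold change -0.52) and 18 in the 10 mg/kg arrays (median -0.42). None passed limma with the block, while without it 4 passed for 1 mg/kg, 5 for 10 mg/kg and 8 for both doses together. Without the block 0.12%, 0.255% and 0.46% of all probe sets passed in these comparisons. The list was chosen with earlier results of these data known, so its counts are no independent evidence. At a nominal p up to 0.05, 15 and 13 were lower, where 7.40% and 6.95% of all 17097 genes were. How far Chrna6 and Chrnb3 went with these genes was measured by subtraction within each array.

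Whether Chrna6 differed by more than the dopamine neuron genes measured beside it was asked within each array. Subtracting the mean of Th, Ddc and Slc6a3 in the same array left Chrna6 at -3.43, -3.34 and -3.45 in the saline arrays, at -3.63, -3.66 and -3.66 in the 1 mg/kg arrays, and at -3.55, -3.62 and -3.57 in the 10 mg/kg arrays. All 6 MPH arrays lay below all 3 saline arrays. The difference of means was -0.24 for 1 mg/kg and -0.17 for 10 mg/kg, each with an exact two-sided permutation p of 0.1, the smallest that 3 arrays against 3 allow, and -0.21 for the 6 MPH arrays against the 3 saline arrays (exact permutation p = 0.0238, the smallest this design allows). Against Th alone the difference was -0.01 for both doses together (exact permutation p = 0.762), and against the other genes of the list it was -0.14 (exact permutation p = 0.0476). The size of the difference thus depended on which dopamine neuron genes were subtracted. Over the 9 arrays the Chrna6 probe set averaged 7.97, and those of Th, Slc6a3 and Ddc averaged 10.69, 11.85 and 12.02. For both doses Th, Slc6a3 and Ddc had log2 fold changes of -0.61, -0.25 and -0.39. The part of this unlike brightness in the differences was not tested. For Chrna6 and Chrnb3 together 24 such tests were run, and after Benjamini-Hochberg adjustment over them the smallest exact permutation p-values became 0.267.

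**Figure D3:**
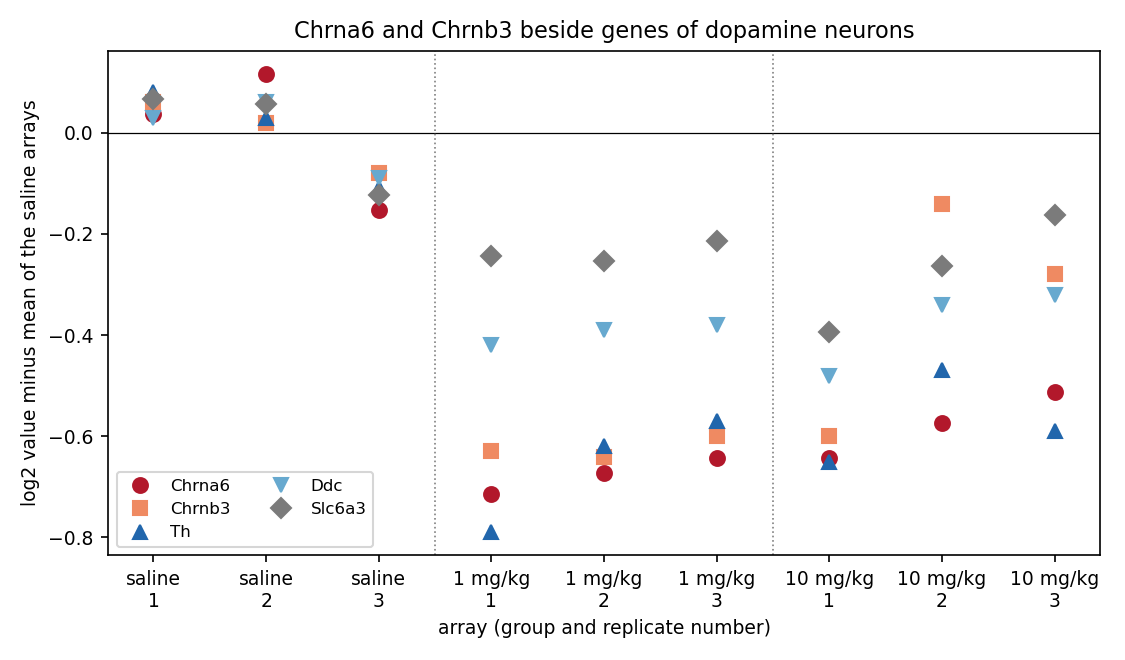
Log2 value minus the mean of the 3 saline arrays for Chrna6, Chrnb3, Th, Ddc and Slc6a3 (y axis) in each of the 9 arrays (x axis, group and replicate number). Each point is 1 gene in 1 array. All MPH points lie below 0, Slc6a3 is nearest to saline in the 1 mg/kg arrays, and Chrnb3 spreads widely in the 10 mg/kg arrays.

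For Chrnb3 the same subtraction gave a difference of -0.19 for 1 mg/kg (exact permutation p = 0.1) and 0.06 for 10 mg/kg (exact permutation p = 0.6). The 1 mg/kg arrays lay below all saline arrays in this measure, and the 10 mg/kg arrays lay on both sides of them. Against Th alone the differences were 0.04 (exact permutation p = 0.9) and 0.23 (exact permutation p = 0.1).

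The principal subunits of the high-affinity receptor, Chrna4 and Chrnb2, did not share one direction. Chrna4, which encodes alpha4, has 3 probe sets, and they disagreed. The brightest, 1421203_PM_at, had log2 values of 6.84, 6.54 and 6.74 in the saline arrays, 6.64, 6.71 and 6.56 in the 1 mg/kg arrays, and 6.02, 6.37 and 6.24 in the 10 mg/kg arrays. The 10 mg/kg arrays lay below all others, and the 1 mg/kg arrays fell within the saline values. Against saline the 10 mg/kg difference was -0.50 on the log2 scale (SE 0.12, adjusted p = 0.422 in limma) and that for 1 mg/kg was -0.07 (SE 0.12).

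The dimmest Chrna4 probe set, 1456354_PM_at, ran the other way. It had log2 values of 3.61, 3.49 and 3.37 in the saline arrays, 3.69, 3.69 and 3.66 in the 1 mg/kg arrays, and 4.09, 3.79 and 4.35 in the 10 mg/kg arrays. All MPH arrays lay above all saline arrays, and the 10 mg/kg arrays above the 1 mg/kg arrays, at values near the controls. On the log2 scale it was higher by 0.58 (SE 0.13, adjusted p = 0.394 in limma) for 10 mg/kg and 0.19 (SE 0.13) for 1 mg/kg. The third probe set, 1421202_PM_at, had overlapping values in all groups, with log2 fold changes of 0.04 and 0.00. Averaged over the 3 probe sets, Chrna4 differed from saline by 0.05 in the 1 mg/kg arrays and 0.03 in the 10 mg/kg arrays, so no direction can be given for the gene. Where each probe set lies in the transcript was not analysed here.

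**Figure D4:**
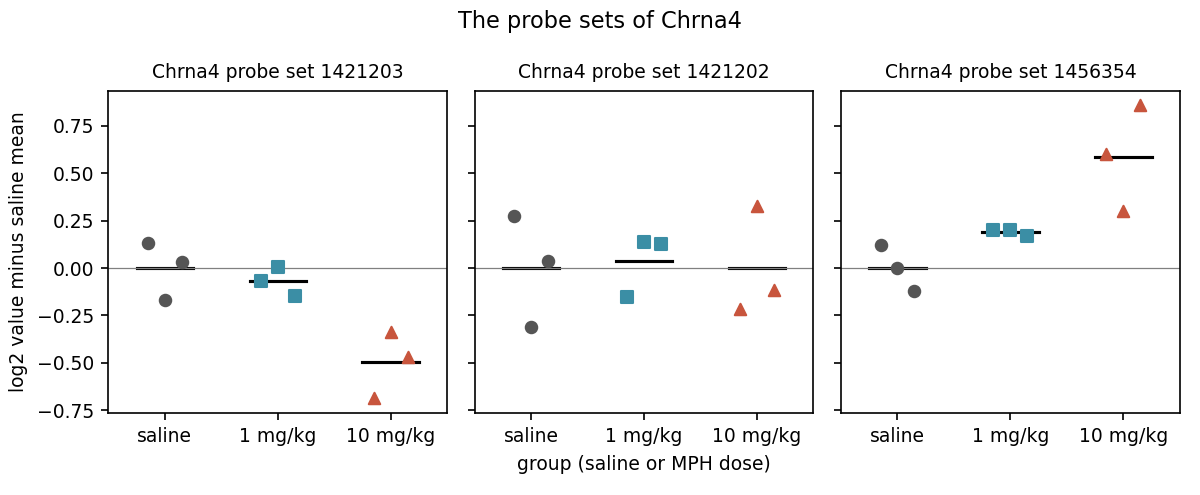
Log2 value minus the saline mean for the 3 probe sets of Chrna4 (y axis) by group (x axis), with points for arrays and a line for each group mean. In the 10 mg/kg arrays the brightest probe set, 1421203, lies below saline, 1456354 above it, and 1421202 on both sides.

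Chrnb2 encodes beta2, the partner of alpha4 and also of alpha6. Its brighter probe set had log2 values of 4.12, 4.12 and 4.13 in the saline arrays, 3.90, 4.06 and 4.10 in the 1 mg/kg arrays, and 4.38, 4.44 and 4.22 in the 10 mg/kg arrays. The saline arrays lay within a very narrow band, with the 1 mg/kg arrays all just below it and the 10 mg/kg arrays all above it. Relative to saline the log2 difference was -0.10 (SE 0.09) for 1 mg/kg and 0.22 (SE 0.09, adjusted p = 0.496 in limma) for 10 mg/kg. Between the doses, 10 mg/kg minus 1 mg/kg, it was 0.32 (SE 0.09, 95% interval 0.12 to 0.53, adjusted p = 0.774 in limma). In that comparison none of the 45037 probe sets passed with or without the block (0%), and at a nominal p up to 0.05 Chrnb2 and Chrnb3 were the higher members (3% of all probe sets) and Chrna4, by its brightest probe set, the lower one (3.39%), while 1456354_PM_at of Chrna4 was higher by 0.39, also at a nominal p up to 0.05. Counting the brightest probe sets, Chrna4 was also the only gene with all 10 mg/kg arrays below all 1 mg/kg arrays (9.44%), and Chrnb2 the only one with all above (8.72%). The dimmer probe set of Chrnb2 was not above the controls, at 3.20 to 3.41 in all arrays.

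Chrna5, Chrna3 and Chrnb4 are neighbouring genes on chromosome 9 and encode subunits that are often combined with each other. Chrna5 and Chrna3 stood above the controls and Chrnb4 did not. Promoter windows of these genes, from 250 bases before to 50 after the start in RefSeq (GRCm38.p6), are shown because the genes lie in one run. Capitals mark GGGCGG or its reverse complement CCGCCC, the GC box bound by Sp1 and related factors, which 35.7% of the 32851 mouse windows hold. Each window is read 5′ to 3′ on the gene's strand.
Chrna5 (chr9:54981238-54981537, plus strand): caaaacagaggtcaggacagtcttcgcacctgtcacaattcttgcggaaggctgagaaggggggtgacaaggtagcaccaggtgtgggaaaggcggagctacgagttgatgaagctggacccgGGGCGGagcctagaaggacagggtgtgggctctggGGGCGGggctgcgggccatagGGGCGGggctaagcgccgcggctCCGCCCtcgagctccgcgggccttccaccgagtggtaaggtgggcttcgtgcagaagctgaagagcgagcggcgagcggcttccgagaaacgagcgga
Chrna3 (chr9:55026513-55026812, minus strand): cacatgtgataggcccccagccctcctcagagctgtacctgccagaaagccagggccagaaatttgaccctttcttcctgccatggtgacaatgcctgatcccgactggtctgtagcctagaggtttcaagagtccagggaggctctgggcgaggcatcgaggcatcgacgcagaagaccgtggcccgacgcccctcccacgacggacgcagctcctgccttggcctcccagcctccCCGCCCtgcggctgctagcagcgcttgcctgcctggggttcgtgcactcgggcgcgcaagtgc
Chrnb4 (chr9:55048495-55048794, minus strand): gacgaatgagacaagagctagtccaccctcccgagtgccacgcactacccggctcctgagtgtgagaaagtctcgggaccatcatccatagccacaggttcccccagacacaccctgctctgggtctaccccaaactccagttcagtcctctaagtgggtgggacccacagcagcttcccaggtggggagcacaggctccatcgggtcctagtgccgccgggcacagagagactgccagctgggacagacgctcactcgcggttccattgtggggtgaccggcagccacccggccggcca
The Chrna5 window held 4 GC boxes, the Chrna3 window 1 and the Chrnb4 window 0, at 65.0%, 64.3% and 63.0% G and C. The median of all windows was 52.7%, so the share of 35.7% is for windows of lower G and C. A second annotated start of Chrna5, with 41.3% G and C, had 0. Windows of 6 of the 9 members were in the table, and single GC boxes also stood in those of Chrna7 and Chrnb2, with 3 in that of Chrna4. A match describes letters only, and no match says nothing about binding.

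Chrna5 encodes alpha5, an accessory subunit that raises calcium entry through receptors it joins. It had log2 values of 4.83, 5.62 and 4.74 in the saline arrays, 4.22, 4.37 and 4.42 in the 1 mg/kg arrays, and 4.82, 4.14 and 4.52 in the 10 mg/kg arrays. The 1 mg/kg arrays lay below all saline arrays, one of the 10 mg/kg arrays lay among them, and saline replicate 2 stood far above the rest. Chrna5 thus had a log2 fold change of -0.72 (SE 0.25, adjusted p = 0.438 in limma) for 1 mg/kg and -0.57 (SE 0.25, adjusted p = 0.529) for 10 mg/kg. Without saline replicate 2 these were -0.37 and -0.21. The same array was the highest in raphe genes, in genes of the habenula and interpeduncular nucleus (mean 5.08, against 4.50 to 4.93 in the others) and the lowest in thalamic genes, and the part of these regions in the Chrna5 value was not tested.

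Chrna2 encodes alpha2 and had the widest range of all members, 1.97 on the log2 scale. Its values were 3.46, 4.84 and 3.77 in the saline arrays, 3.22, 3.37 and 3.24 in the 1 mg/kg arrays, and 4.04, 2.87 and 3.62 in the 10 mg/kg arrays. Saline replicate 2 was again the highest, and replicate 1 of the 10 mg/kg arrays, with the second highest habenula and interpeduncular mean of 4.93, was the next. The genes in that mean were not alike. Nwd2 and Epyc were highest in these arrays, and Pou4f1 in saline replicate 2 only. Tac2 was at 6.51 and 6.33 in them but at 6.58 in replicate 3 of the 10 mg/kg arrays. Gpr151 and Amigo1 lay within the values of the other arrays. The 3 arrays of 1 mg/kg were all within the range of the controls. The log2 fold change was -0.75 (SE 0.40, adjusted p = 0.556 in limma) for 1 mg/kg and -0.51 (SE 0.40, adjusted p = 0.689) for 10 mg/kg, and without saline replicate 2 it was -0.20 and 0.04. Of the 7 genes listed for the habenula and interpeduncular nucleus, 6 were measured and 3 stood above the controls, and the defining habenula genes Gpr151 and Pou4f1 averaged 3.48 and 3.40 over the arrays, within the controls.

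**Figure D5:**
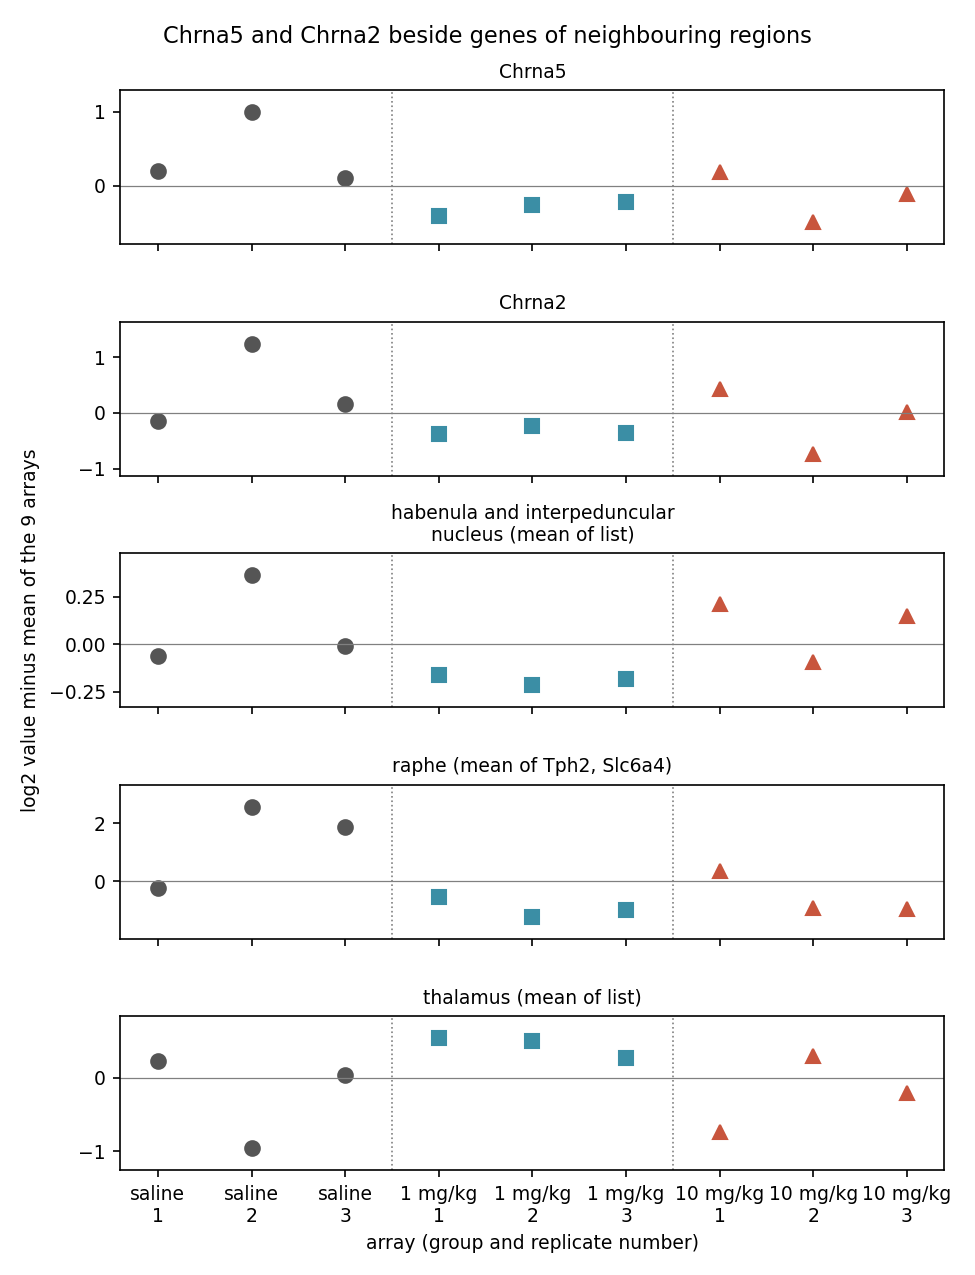
Log2 value minus the mean of the 9 arrays (y axis, scales differ between panels) for Chrna5, Chrna2, the mean of 6 genes of the habenula and interpeduncular nucleus, the mean of the raphe genes Tph2 and Slc6a4, and the mean of 5 thalamic genes, in each array (x axis). Circles are saline, squares 1 mg/kg MPH and triangles 10 mg/kg MPH. Saline replicate 2 is the highest array in the upper 4 panels and the lowest in the thalamic panel.

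Chrna3 encodes alpha3, a ligand-binding subunit. The brightest of its 3 probe sets, 1455931_PM_at, had log2 values of 5.15, 5.34 and 5.12 in the saline arrays, 5.06, 4.88 and 4.93 in the 1 mg/kg arrays, and 4.87, 5.02 and 5.20 in the 10 mg/kg arrays. Here the 1 mg/kg arrays lay below saline and the 10 mg/kg arrays overlapped it, and the log2 fold changes were -0.24 (SE 0.11) and -0.17 (SE 0.11), and -0.15 and -0.08 without saline replicate 2. The second, 1452010_PM_at, had 4.69, 4.80 and 4.71 in the saline arrays, 4.37, 4.51 and 4.49 in the 1 mg/kg arrays, and 4.43, 4.52 and 4.50 in the 10 mg/kg arrays. All 6 MPH arrays lay below all saline arrays for it. Its log2 fold changes were -0.28 (SE 0.07, adjusted p = 0.378 in limma) and -0.25 (SE 0.07, adjusted p = 0.424), small in size but close in both comparisons, and leaving out 1 array at a time kept them between -0.30 and -0.24. The third was not above the controls.

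Chrnb4 encodes beta4, a partner of alpha3. Neither of its probe sets was above the controls, with log2 values of 3.20 to 3.63 in all arrays, and the brighter differed from saline by 0.00 (95% interval -0.26 to 0.27) in the 1 mg/kg arrays and -0.01 (-0.27 to 0.25) in the 10 mg/kg arrays. Chrna7 encodes alpha7, the subunit of the receptor blocked by alpha-bungarotoxin. Its single probe set had log2 values of 3.61, 3.71 and 3.55 in the saline arrays, 3.53, 3.52 and 3.36 in the 1 mg/kg arrays, and 3.72, 3.48 and 3.86 in the 10 mg/kg arrays. These lie at the edge of the controls, and the log2 fold changes were -0.15 (95% interval -0.42 to 0.12) and 0.06 (-0.20 to 0.33). These intervals allow differences of either sign, and at this brightness neither a difference nor its absence can be stated for either gene.

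Counted over the family by the brightest probe set of each gene, lower values outnumbered higher ones. The 9 genes include Chrna2, at the edge of the controls, and Chrna7 and Chrnb4, which were not above them. Chrna4 is counted by 1421203_PM_at, although its probe set 1456354_PM_at had the other direction throughout. The shares beside these counts are of all probe sets. Over the 17097 genes, 7.40% (1 mg/kg), 6.95% (10 mg/kg) and 8.64% (both doses) were lower at a nominal p up to 0.05 in limma. The higher shares of genes were 3.32%, 3.28% and 3.61%. Shares of arrays without overlap were not counted over genes. In the 1 mg/kg arrays, 7 of the 9 genes had all 3 MPH arrays below all 3 saline arrays, where 12.4% of all probe sets did, and 0 had all above (10.7%). Chrna6, Chrnb3 and Chrna5 were lower at a nominal p up to 0.05 in limma, where 5.77% of all probe sets were, and 0 were higher (4.53%). In the 10 mg/kg arrays, 3 genes, Chrna6, Chrnb3 and Chrna4, had all MPH arrays below saline (13.1% of all probe sets) and Chrnb2 had all above (10.3%). The same 3 were lower (5.51% of all probe sets) and Chrnb2 was higher (4.08%) at a nominal p up to 0.05. With the 6 MPH arrays set together against saline, 0 passed limma with the block (0%) and Chrna6 passed without it (adjusted p = 0.0175), as 0.46% of all probe sets did. In that comparison Chrna6, Chrnb3, Chrna5 and Chrna4 were lower at a nominal p up to 0.05 (6.51%) and 0 were higher (4.72%), and Chrna6 and Chrnb3 had all 6 MPH arrays below all saline arrays (5.8%), with 0 having all above (4.15%). Here too the Chrna4 probe set 1456354_PM_at was higher, by 0.39 on the log2 scale and at a nominal p up to 0.05, with all 6 MPH arrays above all saline arrays. The median log2 fold change of the 9 genes was -0.24 for 1 mg/kg and -0.34 for 10 mg/kg, beside -0.02 for all 17097 genes in each comparison. Over all 16 probe sets it was -0.14 and -0.11. The comparisons share the saline arrays, and without saline replicate 2 together with the 10 mg/kg array of high cortical genes, 9 of 9 genes were lower for 1 mg/kg and 5 of 9 for 10 mg/kg, with medians of -0.18 and -0.20. Without saline replicates 2 and 3, the arrays of high raphe genes, 8 of 9 were lower for 1 mg/kg and 6 of 9 for 10 mg/kg, with medians of -0.22 and -0.15. The brighter Chrna6 probe set was then at -0.76 and -0.66, Chrnb3 at -0.81 and -0.53, and Chrna5 at -0.39 and -0.24, while Chrna2 was at 0.06 and 0.29, each against the 1 saline array that remained.

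Other genes of cholinergic signalling were described list by list. Of 7 further nicotinic subunits, those of muscle and of the inner ear, 6 were measured and 2 stood above the controls. Their log2 fold changes ran from -0.10 to 0.01 in the 1 mg/kg arrays and from -0.19 to 0.16 in the 10 mg/kg arrays, and 0 passed limma with or without the block or reached a nominal p up to 0.05. Chrna9, of the inner ear receptor, was at -0.08 and -0.19, and the muscle subunits Chrna1, Chrng and Chrnb1 were at -0.02 and 0.12, 0.01 and 0.16, and -0.05 and -0.10. Of 15 genes that help receptors assemble or modulate them, all measured, 8 were lower and 6 higher in the 1 mg/kg arrays, with Nptn at 0.00 (median -0.04), and 10 were lower and 5 higher in the 10 mg/kg arrays (median -0.01), with 0 passing with or without the block and, at a nominal p up to 0.05, 0 in the 1 mg/kg arrays and 1 in the 10 mg/kg arrays. That 1 was Lynx1, a membrane-anchored protein that dampens nicotinic receptors, at -0.16 for 1 mg/kg and -0.22 for 10 mg/kg. Of all probe sets, 5.51% were lower and 4.08% higher at that nominal p in limma for 10 mg/kg. Tmem35a, the chaperone NACHO, was at -0.16 and -0.14. Ric3, another chaperone, was at 0.06 and 0.23, and Ly6h, which limits alpha7 at the surface, was at -0.27 and 0.00.

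Of 8 genes that make, move or break down acetylcholine, 7 were measured and 4 stood above the controls, with 0 passing limma with or without the block. Ache, acetylcholinesterase, was at -0.26 for 1 mg/kg and -0.31 for 10 mg/kg (adjusted p = 0.418 and 0.424 in limma). Prima1, which anchors that enzyme in neuronal membranes, was at 0.37 and 0.20 (adjusted p = 0.416 and 0.599). Colq, which anchors it in the extracellular matrix, was at -0.10 and -0.15, and Slc5a7, the choline transporter, was at 0.11 and 0.12, both with means within the controls. At a nominal p up to 0.05 stood Ache in both comparisons and Prima1 in that of 1 mg/kg. Of all probe sets, 5.77% were lower and 4.53% higher at that nominal p in limma for 1 mg/kg, and 5.51% and 4.08% for 10 mg/kg. Among the muscarinic receptors, 3 of 5 were measured, with 0 passing with or without the block and 0 at a nominal p up to 0.05 in limma. Chrm1 stood above the controls, at 0.01 and 0.39, and Chrm3 and Chrm4 did not, at 0.06 and 0.05 and at -0.16 and -0.17.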

How the data were processed

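Total RNA of the substantia nigra had been hybridised to 9 arrays, 3 in each group. The authors deposited log2 values summarised by Robust Multichip Average, with no version given. ComBat for the 3 replicates is named in the methods, but it is not stated to be in the deposited log2 values. Platform annotation gave the gene symbols, and 28898 probe sets named a single gene. The 104 control probe sets were left out. All 45037 others entered limma 3.58.1 (lmFit, eBayes) under R 4.3.3, with terms for group and replicate number. Benjamini-Hochberg adjustment ran over all of them, at a threshold of 0.05. The replicate number was kept as a block since the study corrected for it. Arrays of 1 number did not deviate together (correlations of -0.626 to -0.132 over 9 pairs), and its mean square was a median of 0.073 times the residual one, against 0.828 where arrays share nothing. Calls without the block are also given where they differ. A ratio far below 0.828 can arise where a replicate effect was already taken out of the values. It is no ground for dropping the block. Whether the deposited values were already corrected for the replicates is not stated and was not tested beyond this ratio. If so, the fit without the block counts too many degrees of freedom (6, against 4 with it) and its p-values are too small. Chrna6 and Chrnb3 were set against dopamine neuron genes within each array by exact two-sided permutation tests. Nearest patterns were ranked by root mean square difference over genes above the median brightness.

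All 9 members were named, and of each gene list of cholinergic signalling up to 4 genes of smallest p. Members, lists and tests were chosen with earlier results of these data known. The fitting steps were tested on simulated data. Alternatives were no block, ComBat (written from its formula) before limma, the groups compared only, other normalizations, an intensity trend with limma's robust option, brighter probe sets only, a threshold of 0.1, probe sets averaged per gene, other dopamine neuron genes, and each array left out. Leaving out saline replicate 2 with 10 mg/kg replicate 1, or saline replicates 2 and 3 (the lone saline array then being taken to vary like the others), was chosen after seeing the data. The number of arrays limits the precision. Promoter windows came from RefSeq (GRCm38.p6), with those of Chrna6, Chrnb3 and Chrna2 not used here.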

Additional observations from a re-analysis of the deposited data

Results flagged for a closer look

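The difference between the Actb control probe sets of the 3' and 5' ends, a measure outside the gene comparisons, was above the level of the saline arrays in every MPH array. The lowest MPH array stood at 1.03, replicate 2 of the 10 mg/kg arrays, against 0.934 for the highest saline array, replicate 3. It moved with the same groups as Chrna6 and Chrnb3, and its part in their values was not tested.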

How the results depend on the processing

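The number of probe sets past an adjusted p of 0.05 in limma depended on the error model. It was 0 in every comparison of the main fit, which holds the replicate block. Without the replicate block it was 54 for 1 mg/kg, 115 for 10 mg/kg, 207 for both doses against saline and 0 between the doses. After ComBat it was 3152, 2738, 3934 and, between the doses, 716. With the intensity trend and robust option it was 2, 1 and 3. For both doses it was 1 at a threshold of 0.1 and 1 without saline replicate 2 and 10 mg/kg replicate 1, and it was 0 to 1 in each comparison with saline when single arrays were left out. Without saline replicates 2 and 3 it was 1 for 1 mg/kg, 1 for 10 mg/kg and 4 for both doses. Deviations of arrays of 1 replicate number were negatively correlated (-0.626 to -0.132), which is no ground for dropping the block. Of the member results those of Chrna6 alone (4 of 40) gained a call without the block. Such calls rest on 6 residual degrees of freedom in place of 4, too many if the replicates were already corrected. ComBat, which may repeat a correction already made, passed 18 of 40: both Chrna6 probe sets, Chrnb3 and 1452010_PM_at of Chrna3 against saline, 1421203_PM_at and 1456354_PM_at of Chrna4 for 10 mg/kg and both doses, and 1421203_PM_at and Chrnb2 between the doses. No member passed under the other alternatives.

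Signs turned in the following values. With single arrays left out, 1421203_PM_at of Chrna4 ranged from -0.21 to 0.046 for 1 mg/kg, 1421202_PM_at from -0.22 to 0.28 for 1 mg/kg and -0.26 to 0.24 for 10 mg/kg, Chrnb4 from -0.057 to 0.090 and -0.14 to 0.12, and for 10 mg/kg Chrna2 from -0.93 to 0.038 and Chrna7 from -0.069 to 0.20. Without saline replicate 2 and 10 mg/kg replicate 1, 1421202_PM_at was -0.21 and -0.18, Chrnb4 -0.014 and 0.0985, Chrna3 (1455931_PM_at) 0.075 for 10 mg/kg and Chrnb2 -0.018 for both doses. Without saline replicates 2 and 3, 1421202_PM_at was -0.44 and -0.47, Chrna2 0.056 and 0.29, and Chrnb4 -0.13 for 1 mg/kg. For 10 mg/kg, 1421202_PM_at was -0.0125 with median centring and -0.011 after ComBat. The mean of probe sets gave Chrna4 0.055, 0.029 and, for both doses, 0.042, Chrnb4 -0.0028 for 1 mg/kg and Chrnb2 -0.013 for both doses. Chrna6 relative to Th, Ddc and Slc6a3 ranged from -0.23 to -0.17 for both doses with single arrays left out, was -0.011 against Th alone, and between the doses was -0.019 against the other dopamine neuron genes in place of 0.073. The cause of these changes was not tested. Brightness limits Chrnb4 and Chrna7, whose means did not exceed the controls.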
